A study of Mus musculus with 8 samples.

Results

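The Olfr1507 cluster is a group of 7 olfactory receptor genes, Olfr1507 (MOR28) to Olfr1513, that lie side by side on mouse chromosome 14 next to the H enhancer. They were chosen by gene name, for their place beside that enhancer, with the values known. All 7 were found among the 22553 genes of the deposited table, which holds 1192 genes named Olfr. Their values below are therefore descriptions with no test.

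Ribosome footprints and input RNA were counted over coding sequences in cells sorted from the main olfactory epithelium of mice after papain dissociation. The RNA-binding protein gene Mex3a was deleted (KO) or left intact (control) in 2 sorted populations, which gave 4 groups. All the mice carried floxed Mex3a alleles: KO mice were Mex3a fl/fl with a Cre driver, and controls were Mex3a flox/flox or Mex3a flox/+ without a Cre. The first sort took cells with GFP from the Ngn1-GFP transgene, labelled as immediate neuronal progenitors plus immature sensory neurons, and the second took cells with GFP from the OMP-ires-GFP knock-in allele, labelled as mature neurons. The genotype field of the OMP-GFP KO libraries reads OMP-ires-Cre, whereas their description and the design text read OMP-ires-GFP. The sources used here do not give the ages of the mice. The labels list 8 footprint libraries, 2 per group, but each assay has only 1 column for each group, so there is no spread between replicates and no difference below carries a p-value. The 95% intervals given in brackets cover counting error only, and amplified reads without molecular identifiers are not independent molecules.

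Each olfactory sensory neuron expresses a single receptor gene from a very large repertoire, and the receptor sets both the odours the cell detects and the place its axon ends in the olfactory bulb. Receptor genes sit in clusters, and enhancers bound by Lhx2 and Ebf proteins act on the receptors near them and come together from different chromosomes in the nucleus. The H element was the first such enhancer described. It lies beyond Olfr1507, and in mice its deletion lowers the receptors nearest to it, among them Olfr1507 itself, which is expressed in neurons of the ventral epithelium.

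On GRCm38.p6 the cluster runs from Olfr1513 at chr14:52349103-52350044 through Olfr1512 at chr14:52372110-52373051, Olfr1511 at chr14:52389815-52390771 and Olfr1510 at chr14:52409889-52410927. It goes on with Olfr1509 at chr14:52450393-52451402, Olfr1508 at chr14:52462721-52467461 and Olfr1507 at chr14:52489935-52495695. The other 6 genes begin between 27.2 kb (Olfr1508) and 140.8 kb (Olfr1513) from Olfr1507, measured between lowest coordinates. By their RefSeq synonyms Olfr1507, Olfr1508 and Olfr1509 belong to the receptor family MOR244 and the other 4 genes to MOR223. Members of a family are similar in sequence, and the sources used here do not say how reads matching several genes were treated, so the split of counts within a family is uncertain.

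The promoters of 3 members are shown because they hold the letters that homeodomain proteins such as Lhx2 bind in receptor promoters. RefSeq promoter windows on GRCm38.p6 were matched for 5 of the 7 genes, and the sequences are the 250 bases before the annotated start, 5′ to 3′ on the gene's strand, with each match to TAATNA on either strand in capitals. Olfr1508 is on the minus strand (chr14:52467462-52467711), Olfr1509 on the plus strand (chr14:52450143-52450392) and Olfr1510 on the minus strand (chr14:52410928-52411177).
Olfr1508: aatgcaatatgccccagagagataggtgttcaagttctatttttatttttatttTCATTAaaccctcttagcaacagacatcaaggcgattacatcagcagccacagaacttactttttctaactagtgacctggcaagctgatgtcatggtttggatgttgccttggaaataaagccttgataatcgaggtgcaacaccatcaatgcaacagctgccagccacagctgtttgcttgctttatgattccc
Olfr1509: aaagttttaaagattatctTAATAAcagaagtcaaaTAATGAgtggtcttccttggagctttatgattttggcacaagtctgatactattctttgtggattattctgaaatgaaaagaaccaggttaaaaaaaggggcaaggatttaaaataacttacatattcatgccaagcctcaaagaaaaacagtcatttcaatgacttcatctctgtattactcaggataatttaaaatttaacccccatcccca
Olfr1510: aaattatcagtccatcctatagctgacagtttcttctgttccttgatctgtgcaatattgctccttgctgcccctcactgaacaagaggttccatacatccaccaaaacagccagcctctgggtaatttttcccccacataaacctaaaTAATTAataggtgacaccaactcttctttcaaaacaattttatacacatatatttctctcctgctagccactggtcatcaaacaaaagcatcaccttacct
Olfr1508 has 1 match 196 bases before the start, Olfr1509 has matches 231 and 214 bases before it, and Olfr1510 has 1 match 101 bases before it. The windows of Olfr1511 and Olfr1513 hold no match. Their RefSeq models equal the coding sequence in length, so these windows lie before the start codon and not before a mapped transcription start. The models of Olfr1509 and Olfr1510 exceed the coding sequence by 83 and 82 bases, so their annotated starts also lie near the start codon. Among 948 receptor windows 63.8% hold TAATNA, against 24.3% of all 32851 windows, so 3 of 5 members is near the share of receptors in general. The letters CCCNNGGG, used for Ebf proteins, were in 0 of the 5 windows, in 2.74% of receptor windows and in 11.8% of all windows; the members thus hold no overlap of the 2 motifs. A match is a description of the letters and not a site, and the absence of one says nothing about binding.

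The footprint columns summed to between 3031489 and 4456989 counts and the RNA columns to between 26946592 and 89327877. Receptors as a whole took 0.869% to 1.01% of footprints and 0.419% to 0.516% of RNA counts. Mex3a footprints went from 437 in control to 28 in KO Ngn1-GFP cells and from 16 to 5 in OMP-GFP cells. Its raw RNA counts went from 9645 to 656 and from 387 to 38, in columns of unequal depth. In scaled CPM, Mex3a RNA stood at 107 and 22.5 in Ngn1-GFP cells and at 12.4 and 1.46 in OMP-GFP cells. These RNA values give log2 ratios of -2.25 [-2.36, -2.13] and -3.09 [-3.61, -2.61]. The scaled footprint ratios of Mex3a were -3.34 [-3.95, -2.79] and -1.80 [-3.60, -0.28]. Neurog1, which marks progenitors, had 509 footprints in control and 272 in KO Ngn1-GFP cells, but 7 and 3 in OMP-GFP cells. In scaled CPM the Ngn1-GFP control and KO stood at 103 and 85.1 in Neurog1 footprints and at 72.9 and 92.4 in its RNA. Omp, which defines mature neurons, was already at 2559 scaled footprint CPM in the Ngn1-GFP control against 2839 in the OMP-GFP control. The RNA column of the Ngn1-GFP control differed from the rest: in it 376 genes exceeded the remaining 3 RNA columns by 8-fold or more, against 10, 1 and 5 such genes in those columns. Of these, 16 were receptors and 0 were members of the cluster. Among the footprint columns the Ngn1-GFP control also had the most such genes, 56 against 15, 0 and 8. Of those 56, 0 were receptors.

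Olfr1507 dominated the cluster in control cells. In Ngn1-GFP cells it had 693 footprints in the control and 108 in the KO, and in OMP-GFP cells 646 and 155. Values in sets of 4 keep to that order from here on. Per length and depth, the authors' footprint RPKM for Olfr1507 was 165, 37.8, 192 and 40.1. Both control columns were high and both KO columns low, and the intervals of the counts did not overlap between control and KO. Among all receptors, Olfr1507 ranked 1st by footprint RPKM in both controls, 37th in the Ngn1-GFP KO and 41st in the OMP-GFP KO. Its RNA had 3129, 247, 1361 and 242 counts, or 47.4, 13.6, 65.3 and 13.5 TPM, which ranked 2nd, 90th, 2nd and 137th among receptors.

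**Figure D1:**
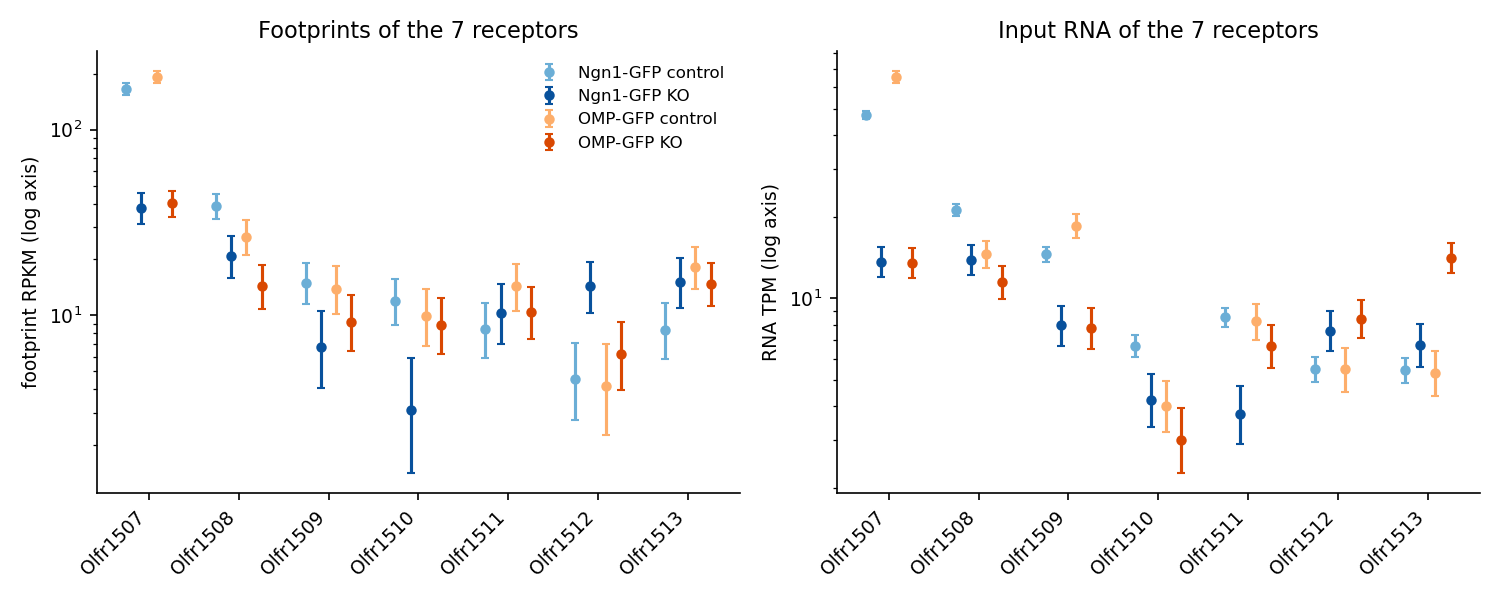
Levels of the 7 receptors in each group on log axes: footprint RPKM on one panel and RNA TPM on the other, with 95% counting intervals as bars and genes ordered along chromosome 14. Olfr1507 stands at 165 and 192 RPKM in the controls and at 37.8 and 40.1 RPKM in the KO columns.

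The other 6 receptors were lower and closer together. Olfr1508 had 161, 59, 88 and 55 footprints. It was second in the cluster in both control columns, at 38.7 and 26.4 RPKM. Olfr1509 had 62, 19, 46 and 35 footprints, and Olfr1510 had 51, 9, 34 and 35. In these 2 genes the Ngn1-GFP KO column was the lowest of the 4. Olfr1511 had 36, 30, 49 and 41 footprints, Olfr1512 had 19, 41, 14 and 24, and Olfr1513 had 35, 43, 61 and 57. For Olfr1512 both KO columns were above their controls.

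The RNA counts of these receptors were larger and gave narrower intervals. Olfr1508 had 1382, 249, 300 and 204 RNA counts, and Olfr1509 had 945, 142, 380 and 137. Olfr1510 had 449, 78, 85 and 55, and Olfr1511 had 571, 69, 174 and 122. The raw counts of the Ngn1-GFP control are the highest for each gene and that column is also the deepest, so the ratios below are scaled for depth. Olfr1512 had 361, 138, 114 and 151 RNA counts, and Olfr1513 had 358, 122, 111 and 253. In RNA TPM, Olfr1513 was at 5.43, 6.73, 5.32 and 14.1, so the OMP-GFP KO column stood above the other 3.

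In order of footprint RPKM, the Ngn1-GFP control ran Olfr1507, Olfr1508, Olfr1509, Olfr1510, Olfr1511, Olfr1513, Olfr1512. From Olfr1509 down to Olfr1512 the counting intervals of each neighbouring pair overlapped. In the Ngn1-GFP KO the order below Olfr1507 and Olfr1508, at 37.8 and 20.9 RPKM, was Olfr1513 at 15.1, Olfr1512 at 14.4 and Olfr1511 at 10.3, with Olfr1509 at 6.76 and Olfr1510 at 3.10. The OMP-GFP KO ran from 40.1 RPKM for Olfr1507 through 14.8 for Olfr1513 and 14.4 for Olfr1508 down to 6.21 for Olfr1512. In that column Olfr1513 and Olfr1508 were level within counting error.

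The comparison of KO with control asks how the cluster's RNA and its ribosome occupancy differ when Mex3a is deleted. Counts were scaled by trimmed mean of M values (TMM), and ratios are given as log2 of KO over control. For Olfr1507 the footprint ratio was -2.06 [-2.37, -1.77] in Ngn1-GFP cells and -2.18 [-2.44, -1.92] in OMP-GFP cells, that is 4.17-fold and 4.53-fold lower in the KO. Its RNA ratio was -2.03 [-2.23, -1.85] and -2.23 [-2.44, -2.03] in the same 2 populations. Olfr1507 was thus about equally low in both assays and both populations. The difference between the populations (OMP-GFP minus Ngn1-GFP) was -0.12 [-0.51, 0.27] in footprints and -0.20 [-0.47, 0.07] in RNA. Since these are bulk samples, fewer cells that express a receptor and less of its RNA per cell cannot be told apart.

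The other MOR244 receptors were also lower in the KO, by less. Olfr1508 had footprint ratios of -0.83 [-1.28, -0.39] in Ngn1-GFP and -0.80 [-1.31, -0.30] in OMP-GFP cells. Its RNA ratios were -0.84 and -0.30. Olfr1509 had footprint ratios of -1.08 [-1.91, -0.32] and -0.51 [-1.19, 0.15], and RNA ratios of -1.11 and -1.21. The OMP-GFP footprint interval of Olfr1509 includes 0. Summed over the 3 genes, Olfr1507 included, MOR244 stood at -1.68 and -1.79 in footprints and at -1.47 and -1.55 in RNA. Olfr1507 held 693 of the 916 control footprints of this sum in Ngn1-GFP cells and 646 of 780 in OMP-GFP cells. The family value thus rests mostly on that gene.

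The MOR223 receptors did not share a direction. Olfr1510 had a footprint ratio of -1.88 [-3.09, -0.84] in Ngn1-GFP cells, from 51 against 9 footprints, and of -0.08 [-0.80, 0.65] in OMP-GFP cells. Its RNA ratios, -0.90 and -0.37, were both below 0. Olfr1511 had footprint ratios of 0.36 [-0.39, 1.10] and -0.38 [-1.01, 0.25], with RNA ratios of -1.42 and -0.25, so in Ngn1-GFP cells its RNA was low in the KO and its footprints were not. Olfr1512 was higher in the Ngn1-GFP KO, with a footprint ratio of 1.73 [0.91, 2.60], and stood at 0.66 [-0.35, 1.72] in OMP-GFP cells, while its RNA ratios were 0.24 and 0.66. Olfr1513 stood at 0.92 [0.24, 1.61] and -0.22 [-0.76, 0.33] in footprints, and at 0.08 and 1.45 [1.12, 1.78] in RNA. The summed family stood at 0.43 [0.06, 0.78] and -0.13 [-0.46, 0.20] in footprints, and at -0.47 [-0.63, -0.31] and 0.52 [0.35, 0.70] in RNA.

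Summed over the 7 receptors, the footprint ratio was -1.15 [-1.34, -0.97] in Ngn1-GFP and -1.34 [-1.51, -1.17] in OMP-GFP cells. Without Olfr1507 the sums were -0.23 [-0.49, 0.02] and -0.36 [-0.61, -0.11], so this gene decides the cluster's value. The RNA sums were -1.15 and -0.86 with Olfr1507 and -0.72 and -0.08 without it. All other receptors together stood at 0.21 and 0.08 in footprints and at -0.17 and 0.14 in RNA.

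Ratios of at least 2-fold were counted over the 7 members and, as background, over all genes whose 2 columns held 20 counts or more. In Ngn1-GFP footprints 3 members were at least 2-fold lower in the KO (Olfr1507, Olfr1509 and Olfr1510), against 11.5% of all genes and 18.7% of other receptors. In the same columns 1 member was at least 2-fold higher (Olfr1512), against 6.9% of all genes and 21.8% of other receptors. In OMP-GFP footprints 1 member was lower (Olfr1507), against 8.99% of genes and 16.1% of other receptors, and 0 were higher, against 7.63% and 16.0%. Apart from the size of the Olfr1507 ratio, the OMP-GFP footprint count is near the background of receptors. In Ngn1-GFP RNA 3 members were lower (Olfr1507, Olfr1509 and Olfr1511), against 12.5% of genes and 22.9% of other receptors, and 0 were higher, against 4.52% and 6.02%. In OMP-GFP RNA 2 were lower (Olfr1507 and Olfr1509), against 4.19% and 9.72%, and 1 was higher (Olfr1513), against 4.64% and 9.62%. The member medians were -0.83 and -0.38 in footprints and -0.90 and -0.30 in RNA, beside 0.21, 0.08, -0.20 and 0.13 for the other receptors.

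Among receptors Olfr1507 lay near the low end of both populations. Of 210 receptors with at least 100 footprints in the Ngn1-GFP pair, 2 had a more negative ratio, and of 241 in the OMP-GFP pair, 3 did. By RNA, 84 of 1051 and 9 of 799 receptors were more negative. Olfr1507 was at least 2-fold lower in all 4 ratios, as were 13 of 639 other receptors (2.03%) with enough counts in all 4. Over all genes with enough counts it was 18 of 10829 (0.166%), a count that includes Olfr1507 and those receptors. Among the 20 receptors with the highest mean footprint level, the other 19 had median ratios of 0.58 and 0.12 in footprints and 0.14 and 0.28 in RNA, and 1 of them, Olfr720, was also at least 2-fold lower in all 4. Olfr720 was named there after its values were seen.

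**Figure D2:**
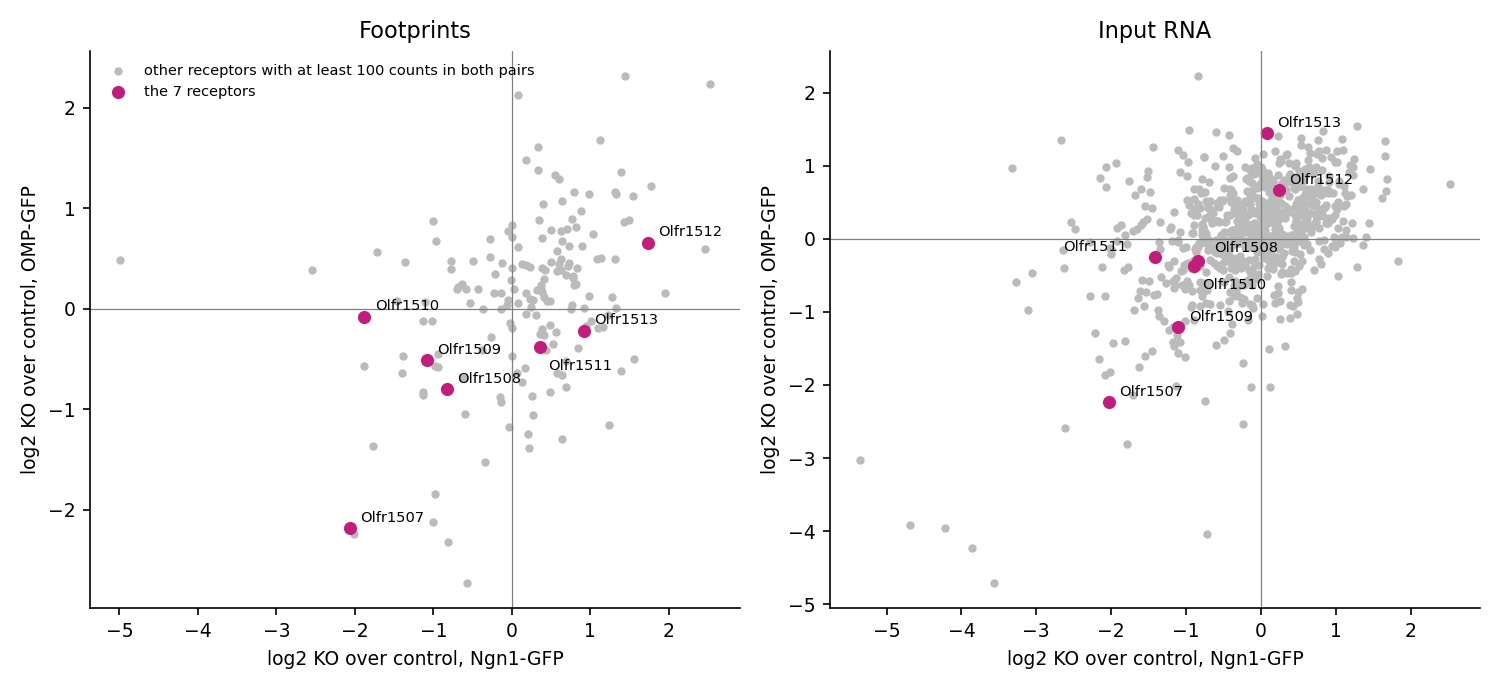
Log2 KO over control in OMP-GFP cells against the same ratio in Ngn1-GFP cells, for footprints and for RNA. Grey points are other receptors with at least 100 counts in both pairs (167 in footprints, 788 in RNA), coloured points are the 7 receptors whatever their counts, and Olfr1507 lies at -2.06 and -2.18 in footprints with 0 of the 167 at or below it on both axes, against 6 of the 788 in RNA.

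Position along the cluster was set against these ratios. The Spearman correlation of gene start with the log2 KO over control ratio over the 7 receptors was -0.82 in Ngn1-GFP footprints, -0.82 in OMP-GFP footprints, -0.64 in Ngn1-GFP RNA and -0.89 in OMP-GFP RNA. The order was not strict in either population. In Ngn1-GFP cells Olfr1510 lay below Olfr1508 and Olfr1509 in footprints, and Olfr1511 lay below both in RNA. In OMP-GFP cells Olfr1511 lay below Olfr1510 and Olfr1513 below Olfr1512 in footprints, and Olfr1509 and Olfr1510 lay below Olfr1508 in RNA. Without Olfr1507 the values over 6 genes were -0.71, -0.71, -0.43 and -0.83. The points share their columns, the order along the chromosome also separates the families MOR223 and MOR244, and position and family cannot be told apart here.

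**Figure D3:**
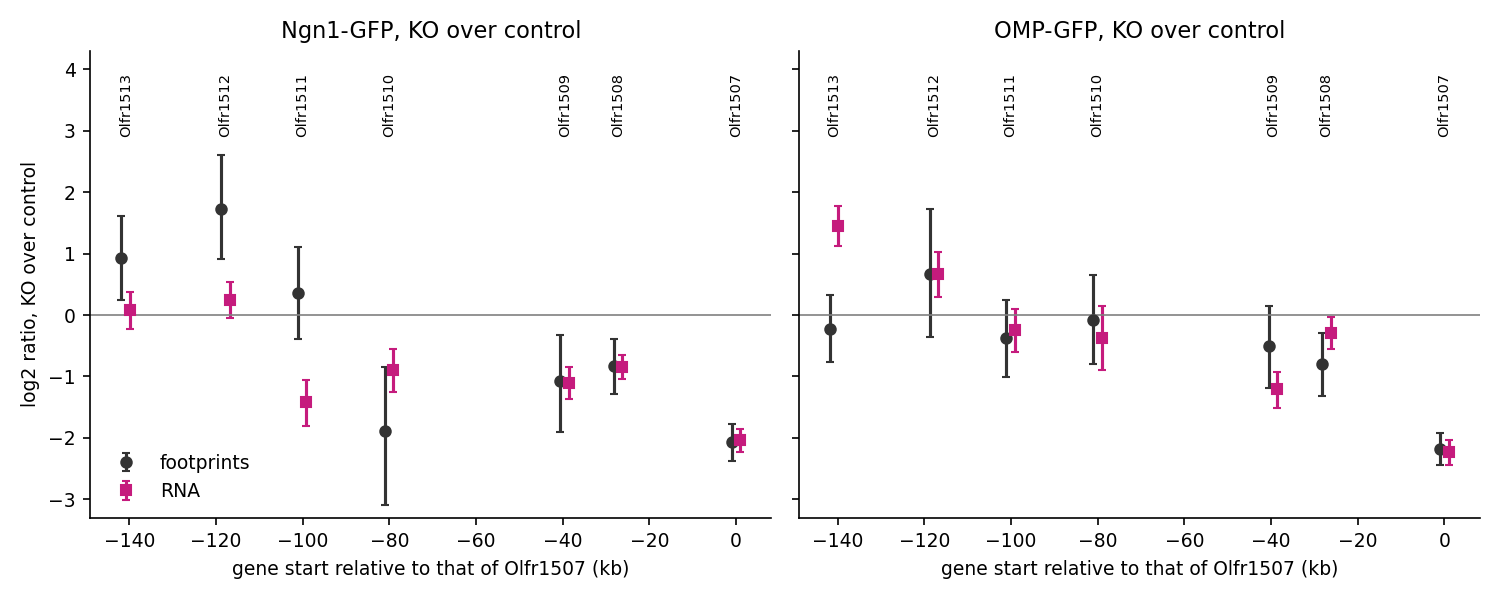
Log2 KO over control of the 7 receptors against distance from the start of Olfr1507 in kb, in Ngn1-GFP and OMP-GFP cells, with 95% counting intervals and the 2 assays drawn slightly apart. Olfr1507 has the lowest ratio in each of the 4 sets of points, between -2.23 and -2.03, and Olfr1512 and Olfr1513, 117.8 and 140.8 kb away, lie between -0.22 and 1.73.

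Receptors elsewhere on chromosome 14 were compared next. The 33 other receptors of the chromosome summed to ratios of -0.47 and -0.50 in footprints and -0.54 and -0.32 in RNA. At least 2-fold lower in the KO were 6 of 22 (27.3%) and 7 of 24 (29.2%) by footprints, and 13 of 33 (39.4%) and 8 of 33 (24.2%) by RNA, in Ngn1-GFP and OMP-GFP cells. Over all receptors outside the cluster the shares were 18.7% and 16.1% by footprints and 22.9% and 9.72% by RNA. Receptors at least 2-fold higher were not counted for this chromosome. Its medians were -0.16 and -0.58 in footprints and -0.39 and 0.07 in RNA. Above 0 were 10 of 22 and 9 of 24 by footprints, and 9 of 33 and 17 of 33 by RNA. The nearest receptor below the cluster, Olfr221, lies 313.9 kb from Olfr1513 and had 11, 28, 2 and 19 footprints and 83, 65, 36 and 88 RNA counts. Scaled for depth, its log2 KO over control ratios were 1.97 and 3.13 in footprints and 1.28 and 1.55 in RNA, all above 0. The next receptor on the other side, Olfr49, begins at chr14:54281896 and had 26, 27, 15 and 13 footprints and 526, 144, 256 and 294 RNA counts. Scaled for depth, the ratios of Olfr49 were 0.68 and -0.33 in footprints and -0.24 and 0.46 in RNA, with no common direction.

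The share of each receptor in the cluster needs no scaling between columns. Olfr1507 took 65.6% [62.6, 68.4] of the cluster's footprints in the Ngn1-GFP control and 35.0% [29.6, 40.6] in the KO (exact binomial intervals). In OMP-GFP cells it took 68.9% [65.8, 71.8] in the control and 38.6% [33.8, 43.5] in the KO. Of the cluster's RNA it took 43.5%, 23.6%, 53.9% and 20.8%. In each pair the KO interval lay below the control interval. The MOR223 receptors together took 13.3%, 39.8%, 16.8% and 39.1% of footprints and 24.2%, 38.9%, 19.2% and 49.9% of RNA. Olfr1508 took 15.2%, 19.1%, 9.38% and 13.7% of footprints. In the OMP-GFP KO the largest RNA share was that of Olfr1513, 21.7% [19.4, 24.2], level with the 20.8% [18.5, 23.2] of Olfr1507 within counting error.

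**Figure D4:**
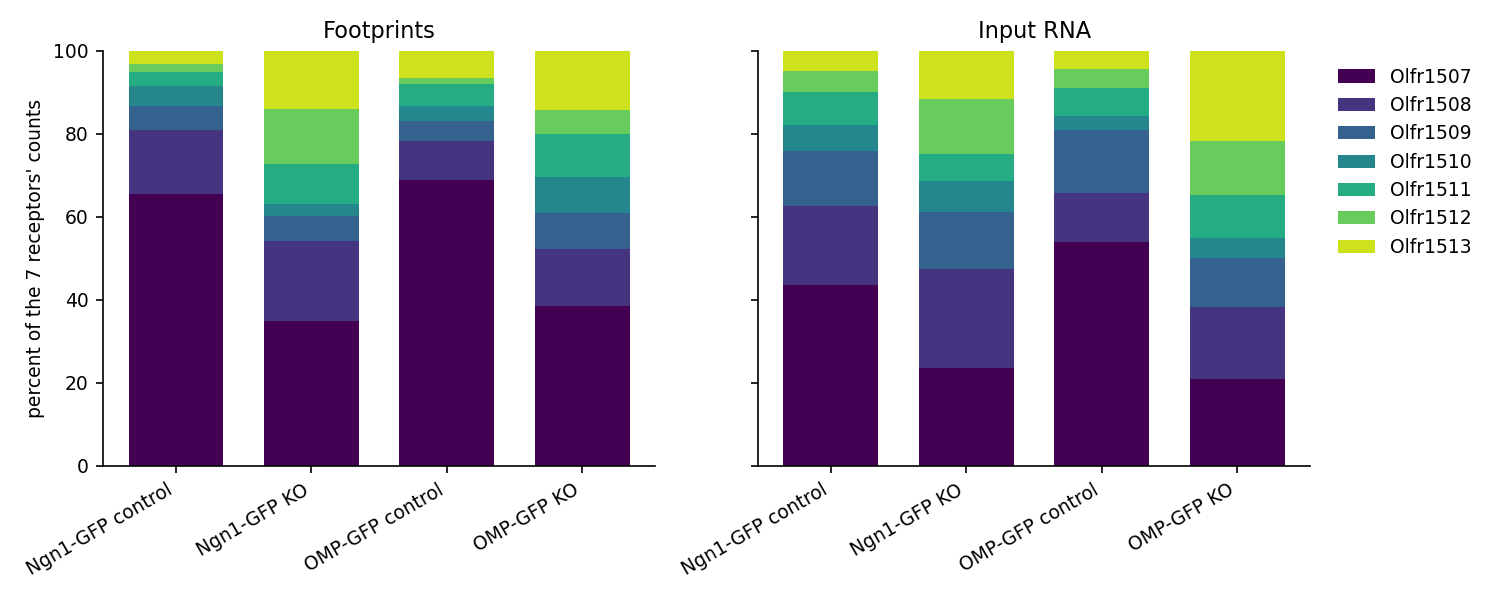
Percent of the cluster's counts taken by each of the 7 receptors, stacked to 100% per group, for footprints and RNA. Olfr1507 takes 65.6% and 68.9% of footprints in the controls and 35.0% and 38.6% in the KO columns.

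Of all receptor footprints, the 7 genes took 2.73% [2.57, 2.89] in the Ngn1-GFP control and 1.08% [0.962, 1.20] in its KO. In OMP-GFP cells they took 2.61% [2.45, 2.78] in the control against 0.989% [0.895, 1.09] in the KO. Of receptor RNA they took 1.76%, 0.897%, 1.66% and 0.838%. Olfr1507 alone took 1.79% and 1.80% of receptor footprints in the controls and 0.377% and 0.381% in the KO columns. Without it, the other 6 genes took 0.939%, 0.701%, 0.812% and 0.608% of receptor footprints. The difference between control and KO was present in this share too, and smaller.

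Footprints per RNA read, a measure of ribosome occupancy often called translational efficiency, was the scaled footprint level over the scaled RNA level. For Olfr1507 it was 4.06, 3.98, 4.35 and 4.51. The log2 ratio of KO over control was -0.03 [-0.37, 0.32] in Ngn1-GFP cells and 0.05 [-0.27, 0.37] in OMP-GFP cells. On the TMM scale, the lower footprints of Olfr1507 in the KO were matched by lower RNA, to within these intervals. All other receptors together stood at 0.38 [0.36, 0.40] and -0.06 [-0.08, -0.04], and the Ngn1-GFP value lies above the Olfr1507 interval. Relative to the summed receptors, the Olfr1507 value was 2.33, 1.78, 2.01 and 2.19. Receptors were ranked if they had at least 10 footprints and 50 RNA counts in the column. Olfr1507 ranked 140 of 786, 123 of 544, 110 of 667 and 92 of 594 such receptors. Those outside the cluster had medians of 2.02, 2.33, 2.18 and 2.09.

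For the other receptors of the cluster, footprints per RNA read ranged more widely. Olfr1508 was at 2.13, 2.16, 2.69 and 1.90, and Olfr1509 at 1.20, 1.22, 1.11 and 1.80. Olfr1510 was at 2.08, 1.05, 3.66 and 4.48. Its value in the Ngn1-GFP KO rests on 9 footprints. Olfr1511 was at 1.15, 3.96, 2.58 and 2.37, a log2 ratio of 1.78 [0.99, 2.57] in Ngn1-GFP cells. Olfr1512 was at 0.964, 2.71, 1.12 and 1.12, a log2 ratio of 1.49 [0.66, 2.32] in Ngn1-GFP cells. Olfr1513 was at 1.79, 3.21, 5.03 and 1.59, so that its KO value was above the control in Ngn1-GFP cells, by 0.84 [0.13, 1.55], and below it in OMP-GFP cells, by -1.67 [-2.28, -1.05]. Summed over the cluster the value was 2.69, 2.69, 3.40 and 2.43, a log2 ratio of KO over control of 0.00 [-0.20, 0.21] in Ngn1-GFP and -0.48 [-0.68, -0.29] in OMP-GFP cells. The log2 ratio of all other receptors together was 0.38 [0.36, 0.40] in Ngn1-GFP and -0.06 [-0.08, -0.04] in OMP-GFP cells. Its Ngn1-GFP value lies within the Olfr1513 interval, below those of Olfr1511 and Olfr1512 and above that of the cluster. The authors' deposited table of translational efficiency gives Olfr1507 5.93, 5.36, 5.60 and 5.79, on its own scale, and Olfr1513 2.62, 4.32, 6.49 and 2.04.

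**Figure D5:**
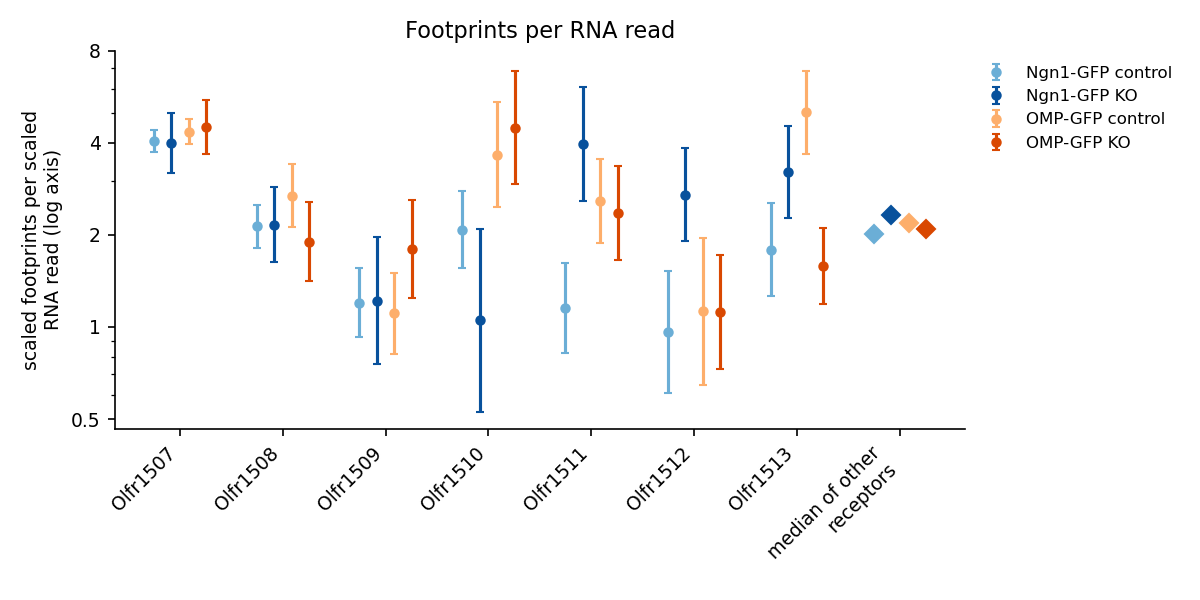
Footprints per RNA read of the 7 receptors in each group, with approximate 95% counting intervals. Beside them is the median of the other receptors with at least 10 footprints and 50 RNA counts. Olfr1507 lies between 3.98 and 4.51 in all 4 groups, and Olfr1513 ranges from 1.59 to 5.03.

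The comparison of OMP-GFP with Ngn1-GFP cells sets the population labelled mature against the population labelled immature, and uses the same 4 columns as the comparison of KO with control. In control cells the footprint ratio of Olfr1507 was 0.43 [0.27, 0.59], and in KO cells 0.31 [-0.05, 0.68]. All other receptors together stood at 0.43 and 0.30, values within the intervals of Olfr1507. Its RNA ratios were 0.33 [0.24, 0.42] in controls and 0.13 [-0.13, 0.39] in KO cells, against 0.11 and 0.42 for all other receptors, so it was above them in controls and below them in KO cells. Olfr1508 stood at -0.34 [-0.73, 0.04] and -0.31 [-0.87, 0.24] in footprints and at -0.67 [-0.86, -0.49] and -0.13 [-0.40, 0.15] in RNA, so that only its control RNA value lay clear of 0. Olfr1513 was at 1.33 in control footprints and at 0.20 in KO footprints, and Olfr1510 at -0.05 and 1.75 [0.66, 2.99]. In RNA, Olfr1513 ran the opposite way, from -0.16 in controls to 1.21 in KO cells.

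At least 2-fold higher in OMP-GFP footprints was 1 member in control cells (Olfr1513), against 6.44% of all genes and 25.1% of other receptors. In KO cells it was 1 member (Olfr1510), against 11.6% and 30.1%. At least 2-fold lower were 0 members in both, against 18.1% of all genes and 9.75% of other receptors in control cells and 18.7% and 17.4% in KO cells. In control RNA 0 members were higher, against 3.53% of genes and 10.9% of other receptors, and 0 were lower, against 24.6% and 18.5%. In KO RNA 1 was higher (Olfr1513), against 4.87% and 20.3%, and 0 were lower, against 16.7% and 8.0%. The cluster as a whole stood at 0.36 [0.23, 0.49] and 0.17 [-0.05, 0.39] in footprints and at 0.02 and 0.32 in RNA.

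The genes whose pattern over the 8 columns was most like that of Olfr1507 were found by the smallest root mean square difference of log2 scaled counts, among 6643 genes with at least 50 counts in each column. The nearest were Olfr720 at 0.430 and Olfr727 at 0.494, both receptors on chromosome 14. Both lie far outside the cluster: Olfr720 begins at chr14:14175130 and Olfr727 at chr14:50126553, beside chr14:52489935 for Olfr1507. These 2 receptors were followed by Pcsk1n, which encodes the prohormone convertase inhibitor proSAAS, at 0.616, by Zbbx at 0.725 and by Cd36, a fatty acid receptor, at 0.735. The median over all genes compared was 1.11. Olfr720 had 319, 61, 327 and 138 footprints and 593, 91, 352 and 111 RNA counts. Of the cluster's other members only Olfr1508 had enough counts to be compared, and it stood at 0.805.

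Other genes known to act in receptor expression were counted in the same way. Of 19 genes for receptor choice and expression, 0 were at least 2-fold apart in footprints in either population, with medians of 0.10 and 0.00. In this list Eif2ak3, the kinase PERK, stood at -0.81 [-1.20, -0.43] and Atf5, a transcription factor of receptor feedback, at 0.64 [0.59, 0.69] in Ngn1-GFP footprints. By RNA 1 of the 19, the heterochromatin protein gene Cbx3, was at least 2-fold lower in the Ngn1-GFP KO, at -2.52. Its footprint ratio was 0.59 [-0.06, 1.24]. Of 5 markers of the ventral zone, where Olfr1507 is expressed, 0 were at least 2-fold apart in either assay, with medians of -0.28 and -0.34 in footprints and -0.05 and -0.16 in RNA. Of 4 dorsal markers 0 were, with medians of 0.22 and 0.07 in footprints and 0.29 and 0.02 in RNA.

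Markers of the sorted neurons and of other cell types were summed in scaled footprint CPM beside these results. The 9 mature neuron markers summed to 11779 and 13047 in the Ngn1-GFP control and KO and to 19132 and 23287 in OMP-GFP cells, and 0 of the 9 were at least 2-fold lower in the KO. The 7 immature neuron markers summed to 4268, 4547, 2186 and 2304, and the 6 precursor markers to 761.9, 1114, 62.9 and 88.9. The 7 sustentacular markers, of the supporting cells, summed to 3846, 337, 128 and 368. In Ngn1-GFP cells 7 of 7 were at least 2-fold lower in the KO, and in OMP-GFP cells 4 of 6 were higher. The 5 gland markers summed to 243, 432, 49.7 and 453, and the 6 immune and vessel markers to 1002, 1186, 132 and 102. Col1a1, a fibroblast collagen gene of the last list, carried most of that sum. Its raw counts in Ngn1-GFP cells were 4780 footprints in the control and 3751 in the KO. Scaled for depth, its log2 ratio of KO over control was 0.27 [0.21, 0.33] there and -0.65 [-0.88, -0.43] in OMP-GFP cells. By gene, 3 of those 6 were at least 2-fold lower and 1 higher in the Ngn1-GFP KO (median -1.49), and 2 of 5 were higher in the OMP-GFP KO (median 0.79). At 0 footprints were 1 immature and 1 precursor marker in the OMP-GFP control, and 0 markers of the other lists in any column. Their part in the values of the cluster was not tested.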

How the data were processed

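Footprints were measured in 8 libraries, 2 per group, and the table holds 1 column per group for each measure; the sources used here do not say how libraries were joined or which libraries gave the RNA columns. STAR, cutadapt, FastQC and the mm10 genome are named, with no versions, per the submitters' processing notes. Per the labels, RNA libraries were made with a stranded low-input kit. Per the file headers, the 24 value columns hold footprint counts and RNA counts over coding sequences, coding length in bases, a translational efficiency ratio, footprint RPKM and RNA TPM. The authors made the counts before deposit, and the deposited RPKM and TPM were recomputed from counts and lengths to within rounding. The authors' efficiency ratio was used as an alternative.

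TMM scaling used edgeR 4.0.16 (R 4.3.3) after a low count filter (minimum count 10, minimum total 15). Genes needed at least 20 counts in a pair of columns, a column at 0 was set to 3 counts, and a call meant at least 2-fold. Intervals are exact conditional binomial for ratios, Clopper-Pearson for shares, exact Poisson for levels, and approximate for footprints per RNA read and for differences of ratios. With 1 column per group no count test was run. The interval code was tested on simulated data. The alternatives tried were summed receptors as the total, library size, size factors of DESeq2 1.42.0, no filter, counts per coding length, receptors with at least 10 footprints in every column, the authors' efficiency ratio and the cluster without Olfr1507. Some were added after seeing the data: the share of the cluster without Olfr1507, and the scalings for the difference of KO ratios between populations. Python 3.11.15, numpy 2.4.6, pandas 2.3.3, scipy 1.17.1 and matplotlib 3.10.9 were used. Named genes are the 7 members, the 5 genes most like Olfr1507 in pattern, Mex3a, and at most 3 genes of each list; the neighbouring receptors Olfr221 and Olfr49, Col1a1 and the receptors lower in all 4 ratios were named beyond that rule, after their values were seen. The name of the Cre driver is not reported here. The members and lists were chosen with earlier results of these data known. Gene positions, synonyms and promoters come from RefSeq (GRCm38.p6).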

Additional observations from a re-analysis of the deposited data

Results flagged for a closer look

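Olfr1513 was singled out because its footprint ratios had opposite signs in the populations with a difference whose counting interval lay clear of 0. Its footprint ratio of KO over control was 0.92 in Ngn1-GFP cells (35 and 43 footprints) and -0.22 in OMP-GFP cells (61 and 57 footprints), so the effect in OMP-GFP minus that in Ngn1-GFP cells was -1.14, with a counting interval of -1.97 to -0.31. The RNA of Olfr1513 differed the other way, by 1.37 [0.93, 1.81]. Differences clear of 0 were also seen in other members, each with the same sign in both populations. The KO effect differed by 1.80 [0.57, 3.03] in Olfr1510 footprints, by 1.17 [0.68, 1.66] in Olfr1511 RNA and by 0.55 [0.22, 0.87] in Olfr1508 RNA. All other receptors together differed by -0.13 [-0.16, -0.10] in footprints and by 0.31 [0.29, 0.32] in RNA. The RNA value lies within the Olfr1508 interval. With 1 column per group these differences were not tested against replicate spread.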

How the results depend on the processing

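No paired analysis was possible because the table has 1 column per group, with no replicate numbers, and leaving out each replicate was not run for the same reason. Over 128 KO ratios of the members and the cluster under 4 scalings, 0 changed sign and 3 crossed 2-fold, all with summed receptors as the total: Olfr1508 in Ngn1-GFP footprints (-1.01), Olfr1509 in Ngn1-GFP RNA (-0.92) and the cluster in Ngn1-GFP RNA (-0.97). The Olfr1507 KO ratio ranged from -2.25 to -2.04 (Ngn1-GFP) and -2.26 to -2.16 (OMP-GFP) in footprints, and from -2.04 to -1.85 and -2.36 to -2.21 in RNA.

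Without Olfr1507 the cluster's KO ratios were -0.23 and -0.36 in footprints and -0.72 and -0.08 in RNA, its OMP-GFP over Ngn1-GFP ratios in controls were 0.21 in footprints and -0.27 in RNA, and its shares of receptor counts were 0.939%, 0.701%, 0.812% and 0.608% in footprints and 0.995%, 0.685%, 0.765% and 0.663% in RNA. Library size gave OMP-GFP over Ngn1-GFP footprint ratios of 0.15 (control) and -0.06 (KO) for the cluster and 0.22 (control) for Olfr1507, and 2.94 footprints per RNA read for the cluster in the Ngn1-GFP control. Summed receptors as the total gave the cluster -0.06 and -0.13 in OMP-GFP over Ngn1-GFP footprints and -0.09 and -0.10 in RNA, KO ratios of -0.97 and -0.99 in RNA, and a difference of RNA KO effects of -0.01. For Olfr1507 it gave 0.01 in control footprints, 0.22 and -0.28 in control and KO RNA, and a difference of RNA KO effects of -0.51. Relative to summed receptors, the cluster's footprints per RNA read, 2.69, 2.69, 3.40 and 2.43 as reported, were 1.55, 1.20, 1.57 and 1.18. With receptors of at least 10 footprints in every column, the Olfr1507 share in the Ngn1-GFP control was 68.9% of footprints and 46.4% of RNA. Except for the changes that follow from leaving genes out, the cause was not tested. Counts of 9 to 62 footprints limit the ratios of Olfr1509 to Olfr1513, whose intervals are wide.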

Other observations

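The 13 other receptors at least 2-fold lower in the KO in both populations and both assays were Olfr1180, Olfr1181, Olfr1183, Olfr1206, Olfr126, Olfr1260, Olfr1264, Olfr1346, Olfr183, Olfr286, Olfr513, Olfr720 and Olfr725. Olfr720 and Olfr725 are 2 of the 21 other receptors on chromosome 14 with enough counts in all 4 ratios (9.52%). Of the same 21, 1 was at least 2-fold higher in all 4 (4.76%). These names were listed after their values were seen.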
